A study of Mus musculus with 12 samples.

Results

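The TNF response of WT mouse embryonic fibroblasts (MEFs) was described across genes. Its members were all genes detected on both TNF arrays or on both untreated arrays of the WT genotype, which left 9049 features, 8353 of them named genes and 696 unnamed probes, of 25697 probes on the array. Cells of one group were WT MEFs given recombinant TNF at 10 ng/ml for 6 h (2 arrays), and those of the other were untreated WT MEFs (2 arrays). Mutant lines Rela-/-Nfkb2-/- and Rela-/-Relb-/-Rel-/-, with and without the same TNF treatment (4 arrays each), completed a series of 12 one-colour Illumina MouseRef-8 v2.0 BeadChips, and all cells were of strain C57BL/6. The submitters call the arrays of a group biological replicates. Whether they came from separate cultures or embryos was not given in the sources used here, so a p-value here reflects just how far these arrays differ, which may be technical. MEFs are connective tissue cells grown from embryos, and the paper's methods describe its MEFs as immortalized in culture. The labels do not say how many embryos the WT cells stand for.

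TNF is a cytokine of acute inflammation. It binds a receptor on the cell surface that recruits adaptor proteins and activates an inhibitor kinase, which marks the inhibitor IκBα for destruction and frees NFκB dimers such as RelA:p50 to enter the nucleus. NFκB switches on genes of chemokines, adhesion molecules and its own inhibitors, and in parallel TNF activates mitogen and stress kinases that act on AP-1 transcription factors. Fibroblasts respond to TNF as a source of chemokines and matrix-degrading enzymes.

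Signals and markers were read before the response. The median raw signal was 105.4 and 102.3 on the TNF arrays and 141.5 and 103.6 on the untreated arrays of WT cells, and 45.3% to 49.0% of the probes of any of the 12 arrays were above background (detection p-value under 0.05). Fibroblast markers were present, with 13 of 16 above background on all 4 WT arrays, but Fap and Thy1 were above background on none. Their summed signal was 72454 and 78954 after TNF, against 77044 and 76125 in untreated cells. Of 13 macrophage and leukocyte markers, Coro1a and Lyz1 alone were above background on all 4 WT arrays, while the defining genes Ptprc, Itgam and Adgre1 were above background on none. The summed leukocyte signal was 357 and 337 after TNF and 451 and 403 in untreated cells. Of 11 endothelial markers Flt1 and Kdr were above background on all 4 arrays, Pecam1 and Cdh5 on none, with sums of 2185 and 2175 after TNF and 1821 and 1627 in untreated cells. Of 11 epithelial markers, Cdh1 and Cldn7 were above background on all 4 arrays (sums of 330 and 338 after TNF, 322 and 311 in untreated cells). Of 12 muscle and neural markers, Map2, Myog, Nes and Stmn2 were above background on all 4 arrays and the other 8 on none. Their sums were 3232.5 and 3262.1 after TNF and 3851.7 and 3466.8 in untreated cells. The part of these small shifts in the results below was not tested, and in such bulk samples fewer cells of a type and less RNA per cell cannot be told apart. Rela, which encodes RelA, had log2 signals of 13.14 and 13.22 after TNF and 12.60 and 12.66 in untreated WT cells, and lay between 10.05 and 10.80 on the 8 arrays of the mutant lines. Nfkb2, which encodes p100, was above background on all 4 Rela-/-Nfkb2-/- arrays, at 7.48 and 8.67 after TNF and 7.23 and 8.83 in untreated cells of that line, against 9.91 and 10.01 after TNF and 8.83 and 8.64 untreated in WT. Relb was at 6.21 and 5.55 after TNF and 5.59 and 5.54 untreated in Rela-/-Relb-/-Rel-/- cells, above background on 1 of the 4 arrays, and Rel was above background on none of the 12. It is not known here if these 4 probes match a deleted stretch, and they therefore test no label.

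More features rose than fell in the shared model, and the rises were larger. In one limma model with a mean for each of the 6 groups, 92 of the 9049 features rose in WT cells (1.02%) and 35 fell (0.387%) at a Benjamini-Hochberg adjusted p under 0.05. At an unadjusted p under 0.05, 506 were higher and 488 lower. Scaling every array to its median signal, which moved the median of all features to -0.26, left 41 rises and 25 falls. Rises had a median log2 change of 1.54 and reached 5.19, whereas falls had a median of -1.18 and reached -2.18, and the median over all features was -0.04. A change of at least log2 2 was found for 30 rises and for 2 falls, Spon2 and Ccn5. For all 92 risers both TNF arrays lay above both untreated arrays, and for all 35 fallers both lay below. The same arrays made the calls, so this separation adds no support, and its share over all features was not counted. Signals were near the floor for many of these genes, as 18 risers were above background on neither untreated array and 9 fallers on neither TNF array. Changes of these genes are given as lower bounds. Just 68 risers and 22 fallers were above background on all 4 WT arrays. Mmp10, Cxcl2, Ch25h and Ptgs2 were above background on 1 untreated array, so their ratios rest partly on signals near the floor. For 27 called genes another probe passed the filter, and all 39 such probes had the same sign as the one used. Their sizes could differ. The other probes of Mmp13 were at 0.40 and 4.64, against 4.71 for the one used. Those of Map1b were at 0.19 and 1.05, against 1.46.

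**Figure D1:**
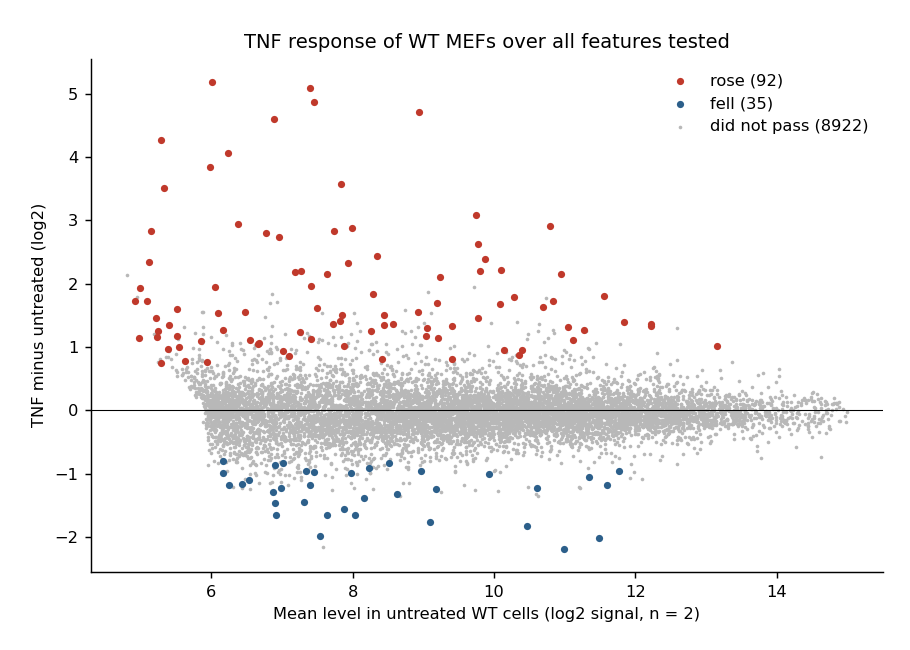
TNF response of WT MEFs for 9049 features, with the mean log2 signal in untreated cells on the x axis (n = 2 arrays) and the log2 change, TNF minus untreated, on the y axis. Red points rose (92), blue points fell (35) and grey points did not pass (8922); the rises reach log2 5.19 and the falls log2 -2.18.

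The number of falls depended on which arrays set the error. The replicate arrays of WT cells differed less (SD of replicate differences of 0.306 after TNF and 0.27 in untreated cells) than those of the mutant lines (0.449 to 0.669), and the model shares a single estimate of the spread. A fit of the 4 WT arrays alone called 258 rises (2.85%) and 197 falls (2.18%), among them all 92 and all 35 of the shared model. Without WT untreated replicate 1 or 2, 5 and 4 falls were left, and without WT TNF replicate 1 or 2, 10 falls each. Dropping 1 array of untreated Rela-/-Relb-/-Rel-/- cells, whichever it was, left 16 falls, and dropping 1 array of TNF-treated Rela-/-Nfkb2-/- cells left 23. The rises numbered 39 and 28 without WT untreated replicates 1 and 2, 61 and 34 without WT TNF replicates 1 and 2, and 60 when an array of untreated Rela-/-Relb-/-Rel-/- cells was dropped. Below, values after ± are standard errors of the log2 change, and adjusted p-values are those of the shared limma model unless the fit of the WT arrays is named.

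The 2 largest falls were those of genes for secreted proteins, Spon2 and Ccn5. Spon2, a secreted matrix protein of the spondin family, had log2 signals of 8.24 and 9.39 after TNF, against 10.53 and 11.46 in untreated cells. Ccn5, a secreted CCN-family protein, was at 8.87 and 10.07 after TNF and at 11.42 and 11.56 in untreated cells. In both genes the groups stayed apart, although the TNF arrays differed from each other by more than log2 1. The falls were -2.18 ± 0.39 for Spon2 (adjusted p = 0.0326, limma) and -2.02 ± 0.34 for Ccn5 (adjusted p = 0.0272). Other fallers that encode secreted proteins were Bmp4, Vegfd and Ogn. Of 33 structural matrix genes other than collagens, though, 1 rose and 1 fell, the latter being Ogn. Bmp4, a ligand of the bone morphogenetic protein receptors, had log2 signals of 10.27 and 10.56 after TNF and 11.54 and 11.65 in untreated cells, a fall of -1.18 ± 0.20 (adjusted p = 0.0265). Vegfd, a growth factor for lymphatic vessels, was at 10.44 and 10.16 after TNF and 11.43 and 11.27 in untreated cells (-1.05 ± 0.18, adjusted p = 0.0304). Ogn, a small leucine-rich proteoglycan of the matrix, was at 10.74 and 10.91 after TNF and 11.83 and 11.72 in untreated cells (-0.95 ± 0.17, adjusted p = 0.0340). These 5 genes were above background on both TNF arrays, so their changes are ratios and not bounds.

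Some fallers encode transcription factors or their cofactors. Ebf2, which marks precursors of fat cells, was at 8.79 and 8.49 after TNF and 10.40 and 10.54 in untreated cells, a fall of -1.83 ± 0.19 with the smallest adjusted p of all fallers (0.00174, limma). Hoxa2, a homeobox factor that patterns the branchial arches, was at 7.51 and 7.14 after TNF and 9.28 and 8.90 in untreated cells (-1.77 ± 0.27, adjusted p = 0.0166). Scx, which encodes the tendon factor scleraxis, had log2 signals of 7.12 and 6.85 after TNF and 7.99 and 7.96 in untreated cells (-0.99 ± 0.16, adjusted p = 0.0221). Osr2, a zinc finger factor of palate and limb development, was at 8.11 and 7.92 after TNF and at 8.97 on both untreated arrays (-0.95 ± 0.14, adjusted p = 0.0157). Ldb2, a cofactor of LIM-homeodomain proteins, was above background on neither TNF array and at least 1.36-fold lower (adjusted p = 0.0340). The arrays of the groups did not overlap in these genes, which were called on the same arrays.

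Fallers also included genes for transporters, a water channel and enzymes, while the transporter genes Slc7a11, Slc7a2 and Slc2a6 were among the risers. Of 15 ion channels in the list used 0 passed. Outside that list, the potassium channel gene Kcnh1 rose by 1.51 ± 0.22 (adjusted p = 0.0127, limma). Lrrc8d, a subunit gene of anion channels, was above background on neither untreated array and at least 2.38-fold higher. Slc1a3, a glutamate transporter, was not above background on either TNF array (5.41 and 5.71) and was at 7.31 and 7.77 in untreated cells, at least 2.94-fold lower after TNF (adjusted p = 0.0269, limma). Aqp5, a water channel, was at 6.21 and 5.74 after TNF and 7.60 and 7.66 in untreated cells (-1.66 ± 0.24, adjusted p = 0.0137), and Slc14a1, a urea transporter, was at 5.50 and 6.24 after TNF and 6.95 and 7.67 in untreated cells (-1.44 ± 0.28, adjusted p = 0.0426). Each of these was above background on a single TNF array. Gldc, the glycine-decarboxylating subunit of the glycine cleavage system, was at 6.46 and 6.30 after TNF and 7.96 and 8.10 in untreated cells (-1.65 ± 0.32, adjusted p = 0.0425). Aldh3a1, an aldehyde dehydrogenase, was at 6.98 and 7.63 after TNF and 8.59 and 8.66 in untreated cells (-1.32 ± 0.21, adjusted p = 0.0203). Plin4, which coats lipid droplets, fell by 1.23 on the log2 scale, with 9.23 and 9.53 after TNF against 10.59 and 10.63 in untreated cells (adjusted p = 0.00615). Cyb561, a membrane cytochrome, and Tph2, an enzyme of serotonin synthesis, were at least 1.47-fold and 1.13-fold lower, with neither above background after TNF.

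Krt13, Ppl, Anxa8 and Ctnnd2 fell as well. Krt13, a keratin of stratified epithelia, was at background after TNF (5.33 and 5.20) and at 6.60 and 7.22 in untreated cells, at least 1.90-fold lower (adjusted p = 0.00616, limma). Ppl, which encodes the desmosome-associated protein periplakin, was at 8.77 and 9.10 after TNF and 9.82 and 10.04 in untreated cells (-0.99 ± 0.19, adjusted p = 0.0413). Anxa8, an annexin, was at 8.07 and 7.82 after TNF and 9.34 and 9.03 in untreated cells (-1.24 ± 0.20, adjusted p = 0.0201). Ctnnd2, a delta-catenin, had 5.98 and 5.55 after TNF and 7.12 and 6.86 in untreated cells (-1.23 ± 0.20, adjusted p = 0.0221). Of the epithelial markers 3 were tested and 0 passed, with a median of 0.17. Cldn7 (0.43) and Cdh1 (0.17) were higher, and Krt19, above background on neither TNF array, was at 5.11 and 5.08 after TNF and 5.93 and 5.97 in untreated cells (adjusted p = 0.0515).

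The rest of the 25 largest falls had varied roles. Rab3il1, an exchange factor for Rab proteins, was at least 1.89-fold lower after TNF (adjusted p = 0.00292, limma), at 5.44 and 5.43 against 6.72 and 7.08 in untreated cells. Lrrn3, a membrane protein with leucine-rich repeats, fell by 1.38 on the log2 scale (6.64 and 6.92 after TNF, 8.17 and 8.14 in untreated cells). Defb42, a beta-defensin, was at least 1.84-fold lower, and Zp3, known as an egg-coat glycoprotein, at least 1.21-fold lower, neither being above background after TNF. Tmem121b, a membrane protein, fell by 1.18, with 6.36 and 6.07 after TNF and 7.48 and 7.30 in untreated cells. The remaining 8 named fallers were Osr2, Ogn and 5 others that changed by log2 -0.95 to -0.83, and Mmrn2, which was above background on neither TNF array and at least 1.13-fold lower.

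**Figure D2:**
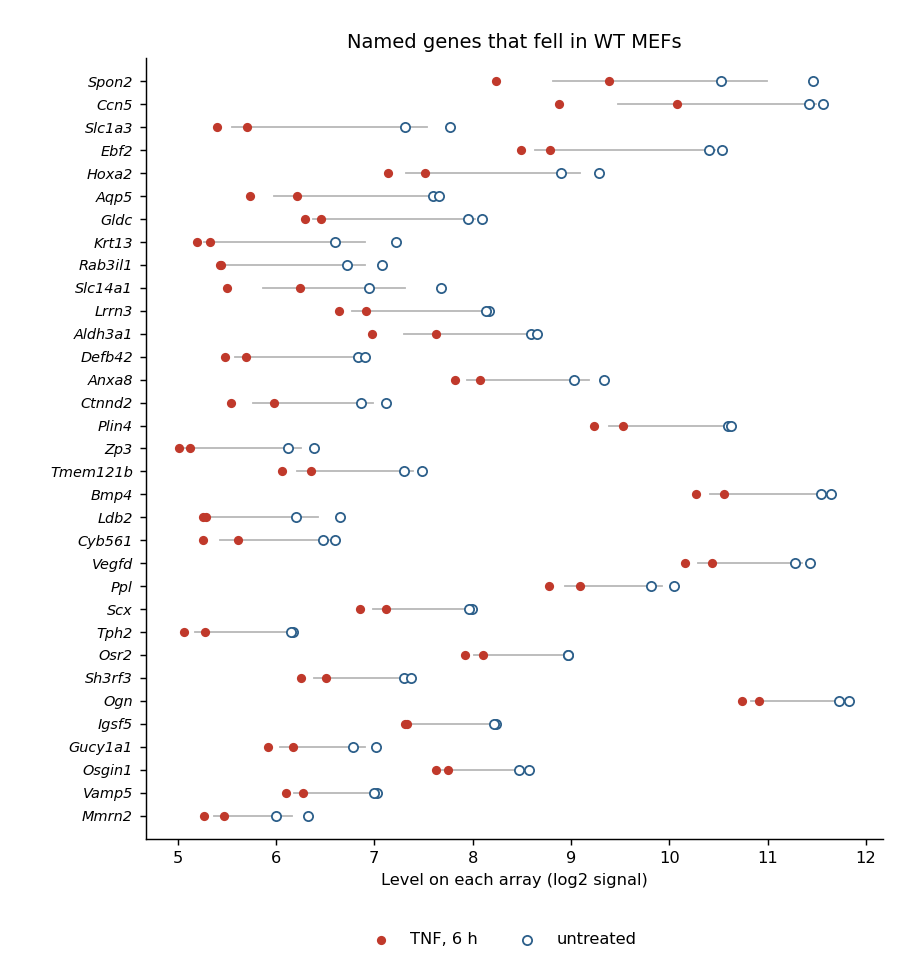
Log2 signal of each WT array for the 33 named genes that fell, ordered by the size of the fall. Filled red points are the 2 TNF arrays and open blue points the 2 untreated arrays, joined at their means; in every row both TNF points lie left of both untreated points, from Spon2 at the top (-2.18) to Mmrn2 at the bottom. Points of the 9 genes at background after TNF are drawn at the measured signal, so their drawn falls are larger than the lower bounds in the text.

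Gene lists set the fallers against other members of their pathways. Of 15 adipogenic regulators and markers tested, 2 fell (Ebf2 and Plin4) and none rose, with a list median of -0.12 against -0.04 over all features. Pparg, the master regulator of fat cell formation, did not pass in the shared model, at 8.19 and 8.61 after TNF and 9.40 and 9.76 in untreated cells (adjusted p = 0.243), and passed in the fit of the WT arrays alone (adjusted p = 0.0162). Of 17 genes of aldehyde, retinoid and xenobiotic metabolism, 1 fell, Aldh3a1, and 14 of the 17 were lower after TNF, with a median of -0.41. Aldh1a7, above background on neither TNF array (5.48 and 5.10, against 6.95 and 5.96 in untreated cells), did not pass (adjusted p = 0.452). Its mean was at least 1.39-fold lower on the TNF arrays. Of 28 genes of the TGF-beta and BMP pathway, 1 fell, Bmp4, and none rose, while the WT arrays alone called 3 falls and 1 rise. Fst, a secreted antagonist of activins and BMPs, had the opposite sign to Bmp4, at 11.24 and 11.45 after TNF and 9.95 and 9.98 in untreated cells (1.38 ± 0.35, adjusted p = 0.119, and 0.00260 in the WT arrays alone).

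Developmental regulators changed in both directions. Of 29 developmental transcription factors, 2 fell (Scx and Osr2) and 3 rose, among them Msx2 by 1.05 ± 0.14 (7.75 and 7.68 after TNF, 6.70 and 6.62 in untreated cells) and Tbx3 by 0.95 ± 0.16 (11.20 and 11.50 after TNF, 10.50 and 10.30 in untreated cells). Msx2 encodes a homeobox factor and is a known target of BMP signalling. Of 17 Hox genes 1 fell, Hoxa2, and none rose, and the WT arrays alone called 2 falls and 2 rises. Hoxb4 was at 9.26 and 9.45 after TNF and 8.02 and 8.19 in untreated cells (1.26 ± 0.55, adjusted p = 0.445, and 0.00457 in the WT arrays alone). Among 31 EGF ligands and angiogenic growth factors, Vegfd fell and 3 rose. They were Pdgfb, a mitogen for mesenchymal cells, by 2.43 ± 0.28 (10.80 and 10.75 after TNF, 8.75 and 7.93 in untreated cells), Vegfc, by 1.42 ± 0.19 (9.15 and 9.33 after TNF, 7.90 and 7.75 in untreated cells), and Ereg. The lymphatic growth factor genes Vegfc and Vegfd thus changed in opposite directions, and both kept their sign with median scaling and with the authors' values.

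Several lists held no gene that passed in the shared model. Of 13 clock genes 0 passed, and the WT arrays alone called 3 falls (2.18% of all features fell in that fit). The clock output factor Dbp was at 9.68 and 10.32 after TNF and 11.12 and 11.29 in untreated cells (-1.21 ± 0.28, adjusted p = 0.0905, and 0.0211 in the WT arrays alone), and Ciart, a repressor of the clock, was at 8.49 and 8.66 after TNF and 9.37 and 9.52 in untreated cells (-0.87 ± 0.38, adjusted p = 0.448). Of 16 WNT ligands and modulators 0 passed, and the WT arrays alone called 2 rises and 1 fall, with Rspo3 at 1.11 ± 0.25 and Apcdd1 at -0.79 ± 0.25. Of 23 SRF and YAP targets and contractile genes 0 passed, with Lmod1 at -1.14 ± 0.44 and Cald1 at 0.94 ± 0.38. Of 9 Notch and Hedgehog genes 0 passed, with Rbpj at 1.14 ± 0.36. Hey1, above background on neither TNF array, had a mean at least 1.25-fold lower there and did not pass (adjusted p = 0.205). None of 15 collagens passed, the largest change being that of Col5a3 at 1.06 ± 0.24. The WT arrays alone called 1 rise among the collagens and 1 among the Notch and Hedgehog genes. In the SRF and YAP list that fit called 1 rise and 1 fall.

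Cell cycle and respiratory chain genes lay slightly below 0 as lists. Of 38 cell cycle and DNA replication genes, 33 were lower after TNF, with a median of -0.24, and 0 passed in either fit (Mcm6 at -0.67 ± 0.26, E2f2 at 0.57 ± 0.16). Of 33 genes of oxidative phosphorylation, 29 were lower, with a median of -0.16, and 0 passed in either fit (Ndufb9 at -0.52 ± 1.13, Atp5o at -0.44 ± 0.27). Over all features 5050 of 9049 were lower, with a median of -0.04. With median scaling these lists had medians of -0.47 and -0.34, against -0.26 for all features. Housekeeping genes (11 tested) had a median of 0.06, which became -0.12 with median scaling.

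The rises outside chemokines and matrix proteases included regulators of NFκB. Nfkbie, which encodes the inhibitor IκBε, was at 10.74 and 10.98 after TNF and 7.95 and 8.02 in untreated cells, a rise of 2.88 ± 0.20 (adjusted p = 2.12e-04, limma). Nfkbia, which encodes IκBα, was at 13.33 and 13.40 after TNF and 11.58 and 11.54 in untreated cells (1.81 ± 0.18, adjusted p = 0.00167). Tnip1, a partner of A20, rose by 1.40 ± 0.18. In all, 3 of 12 inhibitors and feedback regulators rose and none fell, with a median of 0.54, and Tnfaip3, which encodes A20, did not pass (11.01 and 10.86 after TNF, 9.33 and 8.79 in untreated cells, adjusted p = 0.0727). Of 10 NFκB subunits and noncanonical pathway genes 2 rose, Relb by 1.70 ± 0.25 (10.68 and 11.12 after TNF, 9.16 and 9.23 in untreated cells) and the kinase gene Ikbke by 1.55 ± 0.26, and 4 rose in the WT arrays alone. Traf1, an adaptor of TNF receptors, rose by 2.74 ± 0.18 and the death receptor gene Fas by 1.32 ± 0.23, the 2 of 14 receptors and adaptors that passed. The paper counts Traf1 among pro-survival factors, but here it was listed with the receptors and adaptors. No member of the separate pro-survival list (8 tested) and no BH3 or caspase gene of the death list (13 tested) passed in the shared model. The stress gene Gadd45b was at 0.81 ± 0.16 (adjusted p = 0.0524) and the BH3 gene Bid at 0.99 ± 0.20 (adjusted p = 0.0520). The limma fit of the WT arrays alone called both (adjusted p = 0.0298 and 0.0108). Outside these lists, the gasdermin genes Gsdmd and Gsdmc2 rose by 1.02 ± 0.19 and 1.56 ± 0.27.

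Interferon-linked genes rose in several lists. Gbp3, one of the guanylate-binding proteins that defend cells from intracellular pathogens, was at 11.27 and 11.54 after TNF and 8.00 and 7.68 in untreated cells (3.57 ± 0.39, adjusted p = 0.00236, limma). Gbp2b was at 12.61 and 13.05 after TNF and 9.88 and 9.61 in untreated cells (3.08 ± 0.23), and Gbp2 was at 13.55 and 13.86 after TNF and 10.83 and 10.75 in untreated cells (2.91 ± 0.30). Of 9 guanylate-binding proteins and immunity-related GTPases, 3 rose and all 9 were higher after TNF, with a median of 1.20, and the WT arrays alone called 6. These genes are close paralogs, and whether their probes bind each other's transcripts was not tested. Of 18 interferon regulatory factors, STATs and their receptors and kinases 3 rose, Irf1 by 1.36 ± 0.21, Jak2 by 1.26 ± 0.15 and Tyk2 by 1.10 ± 0.16, and 5 rose in the WT arrays alone. All 17 immunoproteasome and MHC class I genes were higher, with a median of 0.37, but 0 passed in the shared model and 3 in the WT arrays alone. Psmb10, a catalytic subunit of the immunoproteasome, was at 11.48 and 11.86 after TNF and 9.55 and 9.88 in untreated cells (1.95 ± 0.49, adjusted p = 0.119), and the peptide-loading gene Tapbp was at 8.63 and 9.37 after TNF and 7.59 and 8.08 in untreated cells (1.17 ± 0.35, adjusted p = 0.208). Of 12 other interferon-stimulated genes, Parp14 rose by 2.16 ± 0.41 (adjusted p = 0.0425). Usp18, above background on neither untreated array, did not pass (adjusted p = 0.665), although its mean was at least 1.82-fold higher on the TNF arrays.

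Innate sensors and adhesion molecules rose as well. Gpr84, a receptor of medium-chain fatty acids, was at 9.78 and 9.31 after TNF and was above background on neither untreated array, at least 12.8-fold higher (adjusted p = 2.02e-05, limma). The bacterial sensor genes Tlr2 and Nod2 rose by 1.69 ± 0.27 and 1.07 ± 0.20, and Clec4e, a C-type lectin receptor, was at least 1.44-fold higher. With Gpr84, which was filed in the pattern recognition receptor list although its ligands are fatty acids, 4 of 14 members rose. None fell in the shared model, and the WT arrays alone called 4 rises and 1 fall. Of 8 leukocyte adhesion molecules 3 rose. Icam1, a ligand of leukocyte integrins, was at 8.87 and 9.78 after TNF and 6.32 and 6.44 in untreated cells (2.95 ± 0.26, adjusted p = 7.59e-04), Selp, which encodes P-selectin, rose by 1.62 ± 0.28, and Vcam1 by 1.01 ± 0.15. Itga2, the collagen-binding integrin α2 subunit, was at 7.14 and 8.82 after TNF and at background in untreated cells (5.04 and 5.26), at least 4.32-fold higher (adjusted p = 0.0375). It was 1 of 12 integrins to rise. Of the leukocyte markers, Ptprc, Itgam and Adgre1 were at background on all 4 WT arrays, while Coro1a and Lyz1 were above it on all 4. The macrophage mannose receptor gene Mrc1, above background on all 4 WT arrays, rose by 1.24 ± 0.20 (adjusted p = 0.0200).

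Genes for enzymes of arginine, lipid mediator and redox metabolism were also among the risers. Nos2, the inducible nitric oxide synthase, was at 9.34 and 9.58 after TNF and 7.37 and 7.17 in untreated cells (2.19 ± 0.17, adjusted p = 3.25e-04, limma). Arg2, an arginase that uses the same substrate, was at 9.32 and 9.42 after TNF and 7.08 and 7.29 in untreated cells (2.18 ± 0.15), and Gch1, which makes the cofactor of nitric oxide synthase, was at 11.20 and 11.46 after TNF and 9.35 and 9.11 in untreated cells (2.10 ± 0.18). These were the 3 of 14 genes of the amine, arginine and nucleotide list that rose. Ptgs2, which encodes cyclooxygenase-2, rose by 1.94 ± 0.30 and Ptges, the prostaglandin E synthase that acts after it, by 1.72 ± 0.17, 2 of 13 genes of lipid mediator synthesis. Ch25h, which makes 25-hydroxycholesterol, was at 9.96 and 9.69 after TNF and 6.51 and 5.46 in untreated cells (3.84 ± 0.36, adjusted p = 0.00114), and no other of 19 genes of sterol synthesis passed (Msmo1 at 0.71 ± 0.30). Of 19 NRF2 targets, metallothioneins and redox genes 3 rose, the cystine transporter gene Slc7a11 by 2.83 ± 0.53, the metallothionein gene Mt2 by 1.51 ± 0.28 and the mitochondrial superoxide dismutase gene Sod2 by 1.34 ± 0.21. The cytokine genes Csf2, which encodes GM-CSF, and Lif, of the interleukin-6 family, were the 2 of 9 colony-stimulating factors and relatives to rise, by 4.59 ± 0.29 and 2.39 ± 0.27.

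For scale, 5 of 14 chemokines and 4 of 14 matrix metalloproteinases and inhibitors rose in the shared model and none fell. The WT arrays alone called 8 rises and 1 fall among the chemokines, and 5 rises and 1 fall among the metalloproteinases and inhibitors. The genes that rose in the shared model are given next. They included Mmp10 at 11.35 and 11.03 after TNF against 6.44 and 5.56 in untreated cells, Mmp3 (12.28 and 12.69 against 7.10 and 7.68), Ccl5 (11.96 and 12.65 against 7.35 and 7.53), Mmp13 (13.82 and 13.48 against 9.72 and 8.15) and Cxcl2 (9.88 and 10.72 against 5.88 and 6.59). Ccl3 was above background on neither untreated array and TNF raised it at least 7.76-fold (limma adjusted p = 7.96e-05).

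**Figure D3:**
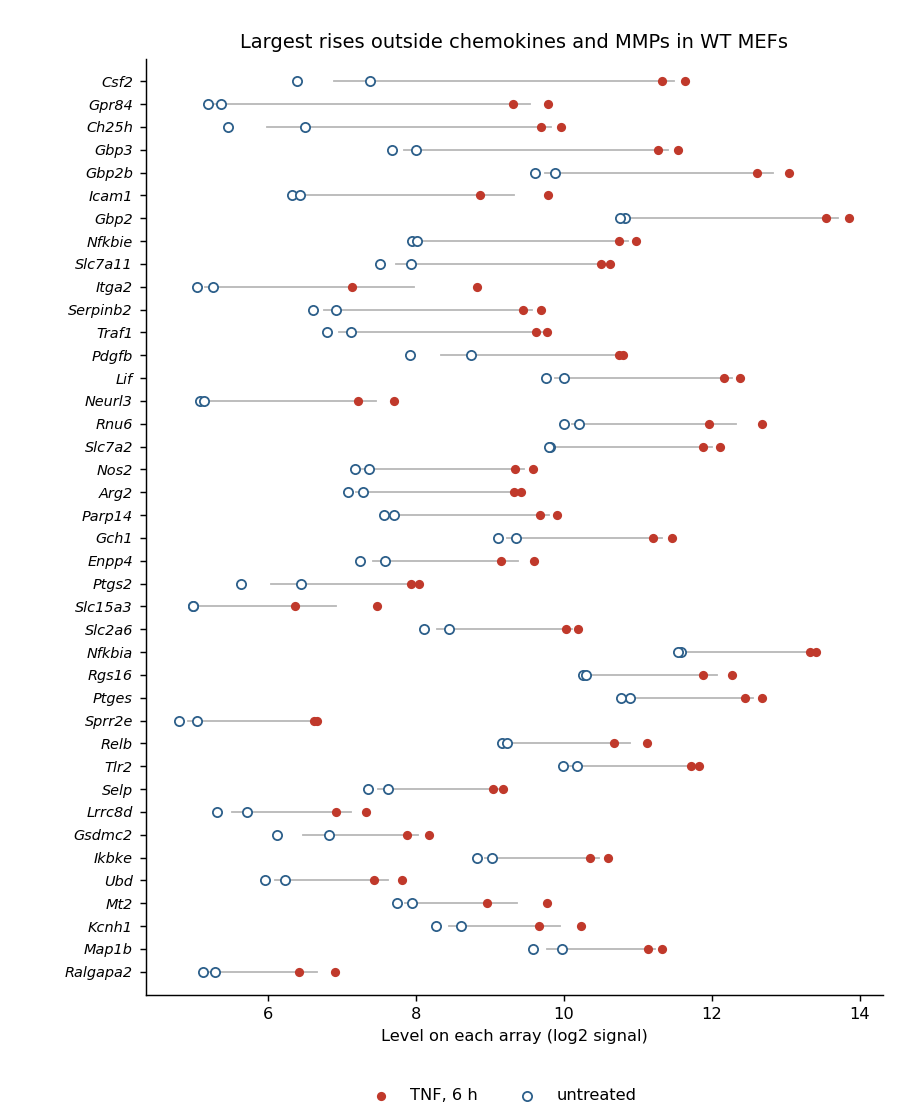
Log2 signal of each WT array for the named genes with the largest rises outside the chemokine and matrix metalloproteinase lists, ordered by the size of the rise. Filled red points are the 2 TNF arrays and open blue points the 2 untreated arrays, joined at their means; Csf2 at the top rose by log2 4.59, and in every row both TNF points lie right of both untreated points.

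**Figure D4:**
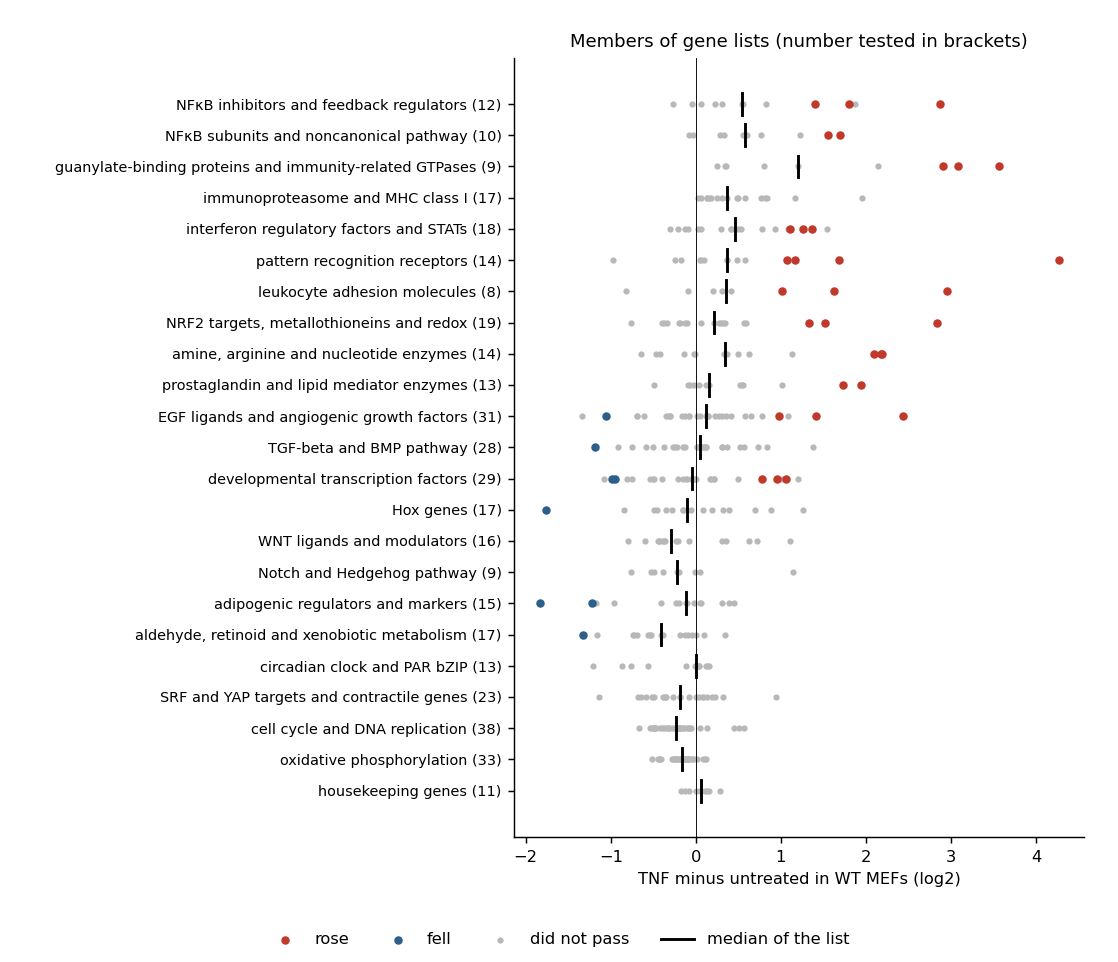
Log2 change, TNF minus untreated, of the tested members of 23 gene lists in WT MEFs, with the number tested in brackets. Red members rose, blue fell, grey did not pass, and the bar is the list median, which lies at 1.20 for guanylate-binding proteins and at -0.41 for aldehyde, retinoid and xenobiotic metabolism.

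The promoters of changed genes were searched for motifs of the factors that TNF is known to act on. Windows of 300 bases (250 before to 50 after a start, RefSeq, GRCm38.p6) were at hand for 69 of the 90 named risers (80 windows) and for 20 of the 33 named fallers (26 windows). The κB consensus matched 20.0% of the riser windows and 7.69% of the faller windows, against 8.46% of all 32851 windows and 10.6% of those of all genes tested. The AP-1 motif TGANTCA matched 20.0% of the riser windows and 11.5% of the faller windows, against 7.81% of all windows and 5.42% of those of genes tested. The TEAD motif CATTCC matched 10.0% of riser and 19.2% of faller windows, against 14.7% of all and 12.0% of those of genes tested. The cAMP response element TGACGTCA matched 2.50% of riser and 0 of 26 faller windows, against 1.79% of all and 3.04% of those of genes tested. The interferon-stimulated response element matched 5.00% of riser and 0 of 26 faller windows, against 3.44% of all and 2.95% of those of genes tested. The CArG box matched 1.25% and 0 of 26, against 1.63% of all and 1.4% of those of genes tested. Matches were counted on both strands, matches of different motifs may overlap, and no test was made. With the calls of the WT arrays alone, the κB consensus matched 17.7% of riser and 10.4% of faller windows, and the AP-1 motif 14.1% and 8.79%.

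Printed here are the promoters of the 3 largest risers with a κB match outside chemokines and matrix proteases, to show that match beside the values above. They are Gbp2 (chr3:142620413-142620679, plus strand), Nfkbie (chr17:45555450-45555699, plus strand) and Lif (chr11:4257318-4257567, plus strand), in GRCm38.p6, each 5′ to 3′ and ending just before the start site. The Gbp2 stretch runs on for 17 bases past the start, where its match lies. Capitals mark the κB match.
Gbp2: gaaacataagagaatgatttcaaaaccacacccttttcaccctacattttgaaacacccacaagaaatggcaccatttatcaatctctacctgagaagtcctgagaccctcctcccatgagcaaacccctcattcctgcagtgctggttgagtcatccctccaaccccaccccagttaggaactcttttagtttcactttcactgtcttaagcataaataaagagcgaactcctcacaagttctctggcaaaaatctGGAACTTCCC
Nfkbie: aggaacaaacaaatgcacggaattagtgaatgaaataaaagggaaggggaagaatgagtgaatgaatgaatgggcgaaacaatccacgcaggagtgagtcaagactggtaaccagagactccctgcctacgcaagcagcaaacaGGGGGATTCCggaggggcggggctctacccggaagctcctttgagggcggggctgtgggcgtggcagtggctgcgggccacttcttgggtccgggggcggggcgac
Lif: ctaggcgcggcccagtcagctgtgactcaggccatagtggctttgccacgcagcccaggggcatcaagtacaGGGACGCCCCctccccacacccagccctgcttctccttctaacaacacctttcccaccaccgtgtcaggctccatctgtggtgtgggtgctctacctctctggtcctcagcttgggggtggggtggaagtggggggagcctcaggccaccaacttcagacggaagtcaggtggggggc
The matches lay at +8 to +17 in Gbp2, -106 to -97 in Nfkbie and -178 to -169 in Lif, counted from the start at +1. All 3 windows also held the AP-1 motif, at -102 to -96, -156 to -150 and -228 to -222.

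Of the fallers, the 2 with the largest fall and any of the motifs were Gldc (chr19:30175442-30175691, minus strand) and Krt13 (chr11:100121567-100121816, minus strand). The windows of Slc1a3, Hoxa2 and Aqp5, which fell further, held none of the 6 motifs. Capitals mark the TEAD motif in Gldc and the AP-1 motif in Krt13, and neither window held a κB match.
Gldc: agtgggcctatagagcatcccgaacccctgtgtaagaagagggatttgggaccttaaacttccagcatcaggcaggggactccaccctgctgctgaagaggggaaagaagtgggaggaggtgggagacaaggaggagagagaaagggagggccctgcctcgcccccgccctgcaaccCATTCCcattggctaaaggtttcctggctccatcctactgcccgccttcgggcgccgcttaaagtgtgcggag
Krt13: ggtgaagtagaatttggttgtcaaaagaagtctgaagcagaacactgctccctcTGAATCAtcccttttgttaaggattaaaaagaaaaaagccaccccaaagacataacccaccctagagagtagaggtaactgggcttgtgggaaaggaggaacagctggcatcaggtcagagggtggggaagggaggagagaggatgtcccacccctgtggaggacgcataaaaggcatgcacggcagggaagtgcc
The matches lay at -73 to -68 in Gldc and at -196 to -190 in Krt13.

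The genes that fell in WT cells were then read in the mutant lines, whose arrays entered the choice of genes only through the shared normalization and estimate of the spread. In Rela-/-Nfkb2-/- cells, 17 of the 35 also fell after TNF and none rose, which was 48.6% of the WT fallers and 1.74% of the falls of that line. Over all features 978 fell (10.8%) and 755 rose (8.34%) in that line. In Rela-/-Relb-/-Rel-/- cells, 1 of the 35 fell (Scx at -1.15) and 1 rose (Krt13 at 1.33), against 47 falls (0.519%) and 100 rises (1.11%) over all features. The median log2 change of the 35 was -1.18 in WT cells, -0.53 in Rela-/-Nfkb2-/- cells and -0.04 in the triple mutant cells. Of the 35, 13 were above background on none of the 4 Rela-/-Nfkb2-/- arrays, and 20 on none of the 4 Rela-/-Relb-/-Rel-/- arrays.

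Several fallers fell further in Rela-/-Nfkb2-/- cells. Bmp4 changed by log2 -1.18 in WT and -3.07 in Rela-/-Nfkb2-/- cells, Scx by -0.99 and -3.06, and Osr2 by -0.95 and -2.31. The difference between the responses, WT minus Rela-/-Nfkb2-/-, passed in limma for each, at 1.89 for Bmp4, 2.07 for Scx and 1.36 for Osr2. Plin4 and Ppl were above background on neither TNF array of that line, so their changes there are bounds. Plin4 was at least 13.3-fold lower there, against a change of log2 -1.23 in WT, and the fitted difference passed, with a lower bound of 2.51. Ppl was at least 4.03-fold lower there, against -0.99 in WT, and the fitted difference passed, with a lower bound of 1.01. Ldb2 changed by -2.98 in the mutant and was at background after TNF in WT (at least 1.36-fold lower), so its difference, which passed at 1.82, could be smaller. Hoxa2 was at -1.77 in WT cells and -0.26 in the triple mutant cells, and was above background on none of the 4 Rela-/-Nfkb2-/- arrays. Aqp5 was at -1.66 in WT cells, 0.25 in Rela-/-Nfkb2-/- cells and 0.29 in the triple mutant cells, above background on 2 and 3 of the 4 arrays of these lines. Of the 35, 7 responded more strongly in WT and 6 more strongly in Rela-/-Nfkb2-/- cells in the test of the difference, and 8 and 0 against Rela-/-Relb-/-Rel-/- cells. Of the genes stronger in WT, 6 of the 7 and 5 of the 8 were above background on none of the mutant line's arrays, so that no fall could be measured there. The WT arrays that chose the genes enter these differences. Of the 92 risers, 41 rose and 5 fell in Rela-/-Nfkb2-/- cells (44.6% of the WT risers and 5.43% of the rises of that line), and 7 rose and none fell in Rela-/-Relb-/-Rel-/- cells. Of these 92, 21 were above background on no Rela-/-Nfkb2-/- array and 40 on no Rela-/-Relb-/-Rel-/- array.

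**Figure D5:**
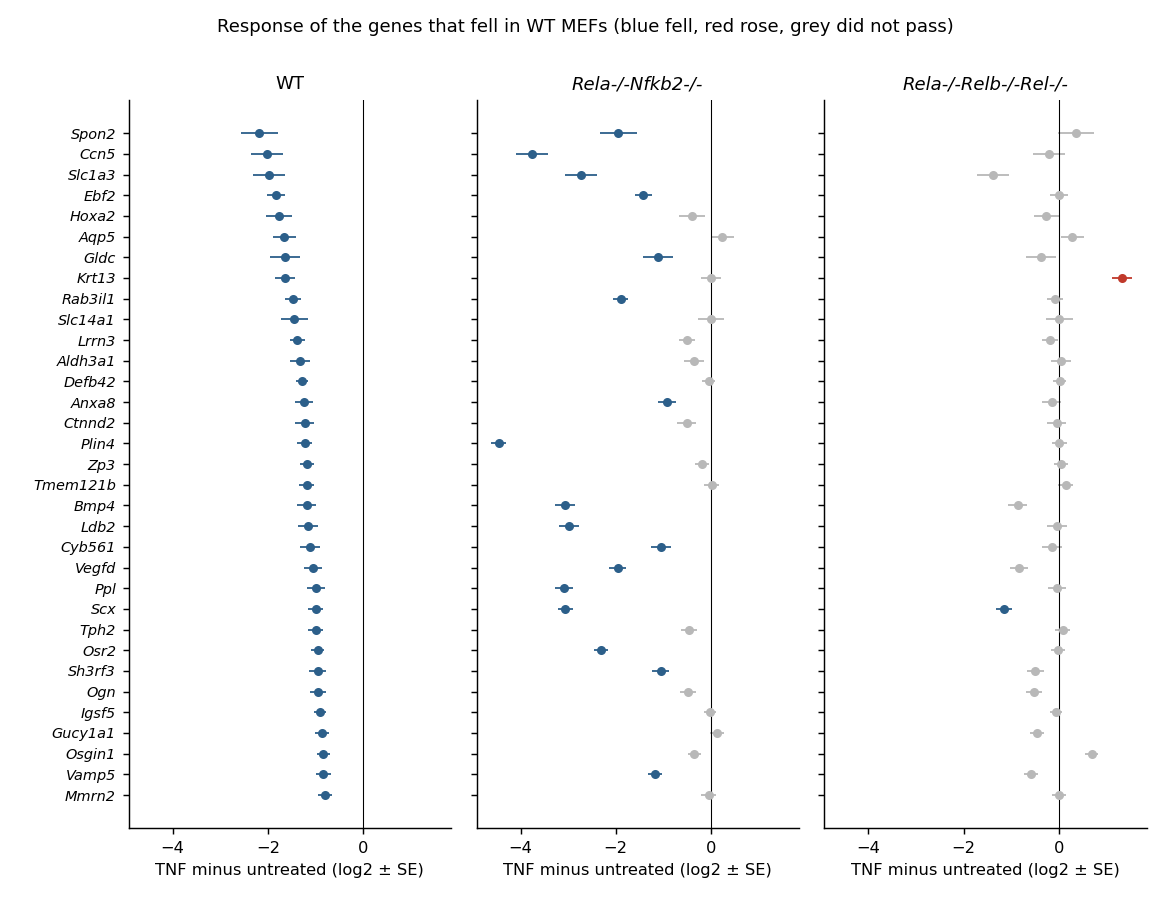
Log2 change, TNF minus untreated, with its standard error, of the 33 named genes that fell in WT MEFs, with panels from left to right for WT, Rela-/-Nfkb2-/- and Rela-/-Relb-/-Rel-/- cells. Blue fell, red rose and grey did not pass; the fitted change of Plin4 in Rela-/-Nfkb2-/- cells is drawn at -4.46 although its TNF arrays were at background, the panels include genes above background on no array of the line, and in Rela-/-Relb-/-Rel-/- cells Scx alone fell and Krt13 alone rose.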

How the data were processed

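RNA of 12 samples was read on 1-colour arrays. The authors deposited, per probe and array, a raw signal intensity and its detection p-value, written by GenomeStudio (version not given in the sources used here). A service company processed the data, and a second deposited table holds the authors' background-subtracted, quantile-normalized intensity, used as an alternative. In R 4.3.3 with limma 3.58.1, neqc subtracted a background inferred from detection p-values, applied quantile normalization and returned log2 values after adding 16. Quantile normalization removes a shift common to most genes, and the added 16 pulls ratios of dim probes toward 0. Of 12000 probes kept, the brightest over the 4 WT arrays stood for each gene (2178 genes had several). One model with 6 group means was fitted to all 12 arrays (lmFit, eBayes; 6 residual and 2.9 prior degrees of freedom) and p-values were adjusted over all 9049 features. For a lower bound, signals of the dim group were first lifted to at least the weakest signal that any probe above background had on that array. Such a bound compares means of 2 arrays and includes no sampling error. Precision is limited by having 2 arrays a group. Code was tested on simulated arrays. The alternatives were other background corrections, normalizations and filters, probe means in place of the brightest probe, fits of the WT arrays alone or with a variance weight for each genotype, the methods' t-test, replicate blocks and leaving out each array.

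The members and gene lists were chosen with earlier results of these data known. Named genes are the 15 largest rises and 25 largest falls that passed and had 1 sign in both same-numbered TNF and untreated pairs, up to 4 called members of each list (or the largest changes, to make 2), and the promoters of the 3 risers and 2 fallers described. Tnfaip3, Pparg, Mmrn2 and Cdh1 were chosen after their values were seen.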

Additional observations from a re-analysis of the deposited data

Results flagged for a closer look

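The response to TNF was compared between genotypes for the 40 named genes with the largest rises and falls in WT cells, in the shared limma model with adjustment over all features. Of 80 differences tested, 39 passed, 19 against Rela-/-Nfkb2-/- and 20 against Rela-/-Relb-/-Rel-/- cells, and of all features 249 differed from Rela-/-Nfkb2-/- and 65 from Rela-/-Relb-/-Rel-/- cells. The genes were chosen for their change on the same WT arrays, which favours larger values in WT. Values in brackets are log2 changes in WT minus log2 changes in the mutant line.

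Among genes that rose in WT, the response was higher in WT than in Rela-/-Nfkb2-/- cells for Mmp3 (3.40), Mmp13 (6.25), Gpr84 (4.29), Cxcl2 (3.40), Gbp3 (3.85), Ccl3 (3.51), Gbp2b (2.86), Icam1 (2.08) and Gbp2 (3.21). Gpr84, Cxcl2, Ccl3 and Gbp2b were above background on no array of that line. Among genes that fell in WT, the response was lower in WT for Aqp5 (-1.90), Krt13 (-1.65), Defb42 (-1.24), Zp3 (-0.99) and Tmem121b (-1.20). All of these but Aqp5 were above background on no array of the line, so no fall could be measured there. Aqp5 was at 0.25 in that line and did not pass. The fall was larger in Rela-/-Nfkb2-/- cells for Plin4 (3.23), Bmp4 (1.89), Ldb2 (1.82), Ppl (2.08) and Scx (2.07). Plin4 and Ppl were at background after TNF in that line, which leaves differences of at least 2.51 and 1.01, and Ldb2 was at background after TNF in WT, so its value could be smaller.

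Against Rela-/-Relb-/-Rel-/- cells, the response was higher in WT for the rising genes Mmp10 (4.60), Mmp3 (5.02), Ccl5 (4.30), Mmp13 (4.00), Csf2 (4.29), Gpr84 (4.51), Cxcl2 (4.13), Gbp3 (4.92), Ccl3 (3.63), Gbp2b (3.14), Icam1 (3.36), Gbp2 (4.16) and Nfkbie (2.46). Ccl5, Csf2, Gpr84, Cxcl2, Ccl3 and Gbp2b were above background on no array of that line. The response was lower in WT for the falling genes Ebf2 (-1.84), Aqp5 (-1.94), Krt13 (-2.97), Rab3il1 (-1.39), Defb42 (-1.31), Zp3 (-1.23) and Tmem121b (-1.33). All of these but Aqp5 and Krt13 were above background on no array of the line, so no fall could be measured there. Krt13 rose by 1.33 in that line, opposite to its fall in WT, and Aqp5 was at 0.29 and did not pass. The levels of untreated cells also differ between the lines, and the part of that in these differences was not tested.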

How the results depend on the processing

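Of the 127 called features, 92 rose and 35 fell. With median scaling 66 were called (41 and 25), and with features above background on all 4 WT arrays 81 (62 and 19). The 4 WT arrays alone gave 455 (258 and 197), and a variance weight for each genotype 478 (272 and 206). The methods' t-test gave 1167 (492 and 675) unadjusted and 0 (0 and 0) after adjustment. Leaving out 1 array at a time gave 32 to 141 calls, 28 to 97 rises and 4 to 44 falls. Of WT fallers, 0 fell in Rela-/-Relb-/-Rel-/- cells with median scaling, against 1. The other settings kept these counts within 1.5 times. All 79 called genes named by rule kept their sign under every setting run, and stayed past the threshold in 1660 of 2103 values. The cause of these changes was not tested. Whether same-numbered arrays are paired is not given in the labels: their deviations correlated at 0.324 between the WT groups, 0.68 and 0.701 within the mutant lines, 0.641 to 0.871 between them, and -0.186 to 0.00499 between WT and mutant groups. With 2 numbers a group this does not establish a pairing. A replicate block within genotype called 318 features (190 and 128), and in the WT arrays alone 1219 (586 and 633). With that block, 12 WT risers rose and 3 WT fallers fell in Rela-/-Relb-/-Rel-/- cells, against 7 and 1. Signals near background limit the 18 risers and 9 fallers given as bounds, and also the called genes above background on 1 array of a group.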
